A study of Mus musculus with 4 samples.

Results

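Among the transcripts measured in a green tea polyphenol resistance study are 10 genes for secreted cytokines and for cell adhesion molecules of the immunoglobulin family. The cytokines are Csf1, Csf3, Il6, Lif and Il11, and the adhesion molecules are Vcam1, Icam1, Alcam, Mcam and Ncam1. They were chosen by name, with earlier results of these data known. Every probe set whose platform annotation gave only that symbol was taken, which made 22 of the 22626 probe sets that are not array controls. The cells are NF639, a breast cancer line of the mouse whose parent tumour arose under an ErbB2 transgene, profiled on Affymetrix Mouse 430A 2.0 arrays. The EGCG-resistant group (Resistant, 2 arrays) is a pool of NF639 cells that resists EGCG, epigallocatechin gallate, an abundant green tea polyphenol, and the Original group (2 arrays) is the NF639 population labelled as original. The study text names 2 independent experiments, but do not tie an array's number to an experiment. How the pool was obtained and whether EGCG was present at harvest are not given in the sources used here.

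CSF1 is the growth factor through which macrophages survive and proliferate, and CSF3 does the same for neutrophils. IL-6, LIF and IL-11 belong to 1 family that signals through the shared receptor chain gp130 (gene Il6st), the JAK kinases and the transcription factor STAT3. VCAM-1 and ICAM-1 hold leukocytes through integrins and are textbook targets of NF-kappaB, while ALCAM, MCAM and NCAM bind partners on neighbouring cells, often the same molecule. Tumour cells can make all of them, and levels of RNA say nothing of what is secreted or shed.

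The transcripts that differed most between the groups were Csf1, Alcam and Vcam1. All 4 probe sets of Csf1 were dimmer on both Resistant arrays, at 0.549 to 0.648 times the Original mean. Both probe sets of Alcam were brighter on both Resistant arrays, at 1.91 and 2.86 times the Original mean. Vcam1 had lower Resistant means on its 3 probe sets, but its 2 Original arrays lay far apart. None of these differences passed the test over all probe sets with the 2 arrays per group that the study has, and Csf1, Alcam and 2 probe sets of Vcam1 passed once the array number was a term of the fit.

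RefSeq upstream windows are shown for Csf1 and Alcam, because their probe sets lay on opposite sides of 0. Of the 10 genes 7 had an entry in the promoter table (Icam1, Alcam, Mcam, Csf1, Il6, Lif and Il11), which gave 8 windows because Il11 has 2, and Vcam1, Ncam1 and Csf3 had none. Each window is the 250 bases before the annotated start of the gene, 5′ to 3′ on the strand of the gene, in the GRCm38.p6 build. The Csf1 window is chr3:107760470-107760719 and the Alcam window is chr16:52453082-52453331, both on the minus strand. Capitals mark matches, on either strand, to kappaB-like letters, which are GGG, any 5 bases and CC.
Csf1: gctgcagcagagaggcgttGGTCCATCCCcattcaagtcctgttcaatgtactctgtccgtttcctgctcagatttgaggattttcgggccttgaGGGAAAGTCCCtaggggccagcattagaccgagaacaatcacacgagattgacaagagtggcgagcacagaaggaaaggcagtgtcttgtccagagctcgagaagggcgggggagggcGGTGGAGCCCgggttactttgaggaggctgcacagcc
Alcam: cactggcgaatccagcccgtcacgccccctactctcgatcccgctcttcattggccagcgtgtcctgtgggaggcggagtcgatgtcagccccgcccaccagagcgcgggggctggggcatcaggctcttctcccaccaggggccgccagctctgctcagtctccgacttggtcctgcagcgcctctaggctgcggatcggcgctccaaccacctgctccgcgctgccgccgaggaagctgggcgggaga

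The Csf1 window held 4 matches to them, of which 2 overlap around GGGAAAGTCC, which starts 155 bases before the gene. The Alcam window held 0. These letters are loose: 45.8% of the 32851 promoter windows of the table hold at least 1 match. The GC box letters GGGCGG were found 2 times in each of the 2 windows on either strand (32.7% of all windows hold 1), and 1 of the Csf1 GC boxes overlaps a capitalised match. In the other windows there were 7 matches for Mcam, 5 for Lif, 3 for Il6, 1 for Icam1, and 0 and 2 in the windows of Il11. Matches that share bases are each counted, and for Mcam and Lif the same bases also match on both strands. The counts therefore do not rank the windows. Among the matches of Il6 was GGGATTTTCC, starting 44 bases before the gene. The AP-1 letters TGANTCA occurred in the windows of Il6, Lif and Il11 and in neither of the printed ones (6.75% of all windows). A match is a description of these letters and not a binding site.

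The values are MAS5 signals, which are background-adjusted intensities on a linear scale, and they were compared as log2(signal + 3), where differences of dim probe sets are understated. A probe set was tested only if its 4-array mean on that scale reached the 40th percentile, a signal of 49.1. Of the 22 probe sets 15 passed this filter, from 5 genes (Vcam1, Alcam, Ncam1, Csf1 and Lif), and 7 did not. The dimmest of the 15 was an Ncam1 probe set with a mean of 79.7, and the brightest of the 7 was a Lif probe set with a mean of 36.3. A probe set below the filter has a signal too dim to order the groups, which does not show that the transcript is absent.

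The 4 arrays had median signals between 114 and 135.2 and 2% trimmed means between 496.8 and 497.8 as deposited, so a difference in total RNA per cell would not show. The spiked controls BioB, BioC and BioDn were 1.39 to 2.29 times brighter on the array numbered 2 than on the array numbered 1 of the same group, in all 7 probe sets of both groups. Between groups at the same number the ratio was 0.938 to 1.14, Resistant over Original. Values are therefore given also within each number and with the number as a term of the fit. Nothing says that the arrays came from separate cultures beyond the named experiments, so p-values speak only for these arrays. The spread behind them is borrowed in part across probe sets, and wholly so with the number as a term.

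**Figure D1:**
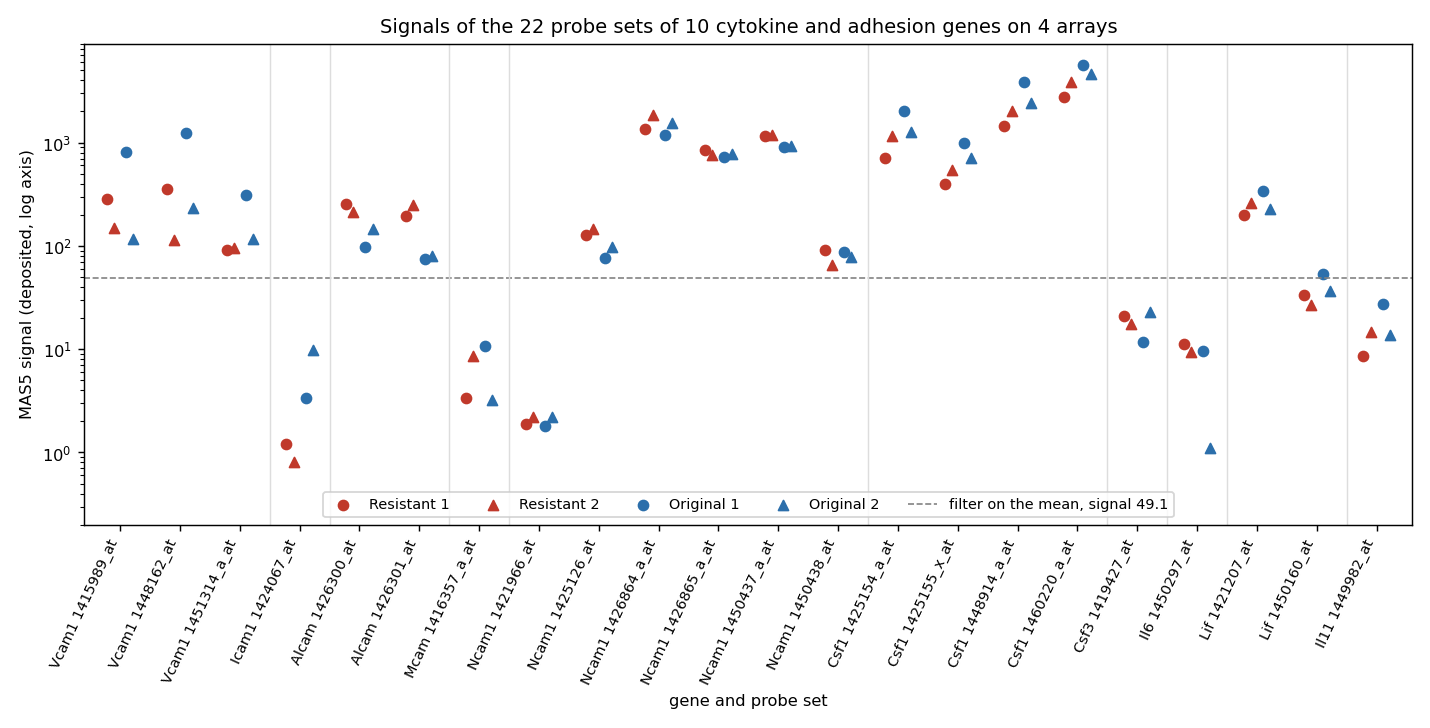
Deposited MAS5 signal (log axis) of each of the 22 probe sets, with Resistant arrays in red left of Original arrays in blue, circles for arrays numbered 1 and triangles for arrays numbered 2. The dashed line is the filter signal of 49.1. All 4 Csf1 probe sets have both red points under both blue ones, both Alcam probe sets the reverse, and Icam1, Mcam, Csf3, Il6 and Il11 lie under the line.

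With limma and Benjamini-Hochberg adjustment over 13576 probe sets, 0 of the 15 member probe sets passed, against 0.169% of all tested (0.0589% higher and 0.110% lower). At an unadjusted p under 0.05 there were 7 of the 15, 5 lower (Csf1 4, Vcam1 1) and 2 higher (Alcam), where 7.35% of all tested probe sets reached that level (3.92% lower and 3.43% higher). limma without a variance trend also called 0 of them, with 7 at an unadjusted p under 0.05, which were 4 lower and 3 higher and so not the same 7. With the array number as a term 8 passed, 6 lower and 2 higher, against 5.23% of all tested (3.00% lower and 2.23% higher). These were the 4 Csf1, 2 of the 3 Vcam1 and both Alcam probe sets. Probe sets of 1 gene share a transcript, so these 8 stand for 3 genes. That fit has 1 residual degree of freedom and an infinite prior, so the spread it uses is borrowed across probe sets rather than measured in each. The signals did not overlap between the groups in 9 of the 15 probe sets, 4 higher and 5 lower, where 36.0% of all tested did not overlap (17.7% higher and 18.2% lower). The median difference of the 15 was -0.30, against -0.0035 over all 13576 tested. Since the members were chosen with earlier results of these data known, their counts and median are no independent evidence.

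Csf1 encodes macrophage colony-stimulating factor, and its 4 probe sets all passed the filter. Its brightest probe set, 1460220_a_at, had signals of 2761.8 and 3838.4 on Resistant arrays 1 and 2, against 5571.8 and 4613.7 on Original arrays 1 and 2. The group means were 3300 ± 761 and 5093 ± 677 (SD, n = 2 each). The log2 difference was -0.64 ± 0.198 (SE; limma adjusted p = 0.408, unadjusted p = 0.00878). Both Resistant arrays were lower than both Original arrays, with the widest gap between the arrays numbered 1.

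The next brightest, 1448914_a_at, had 1432.1 and 2037.6 on the Resistant arrays, against 3836.4 and 2414 on the Original arrays. Its log2 difference was -0.83 ± 0.243 (SE; limma adjusted p = 0.367). Probe set 1425154_a_at had 713.8 and 1155.6 on the Resistant arrays, against 2033.6 and 1272.8 on the Original arrays (-0.82 ± 0.271, SE; limma adjusted p = 0.466). On all 3 the order of the arrays was the same, with Original 1 highest, Original 2 next, then Resistant 2 and Resistant 1 lowest.

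The remaining probe set, 1425155_x_at, carries the x suffix that Affymetrix gives where probes may also pair with other, unrelated RNAs. It had 397.4 and 538.7 on the Resistant arrays, against 988.5 and 716.4 on the Original arrays (-0.86 ± 0.234, SE; limma adjusted p = 0.318). It kept that order too, which 3.37% of all tested probe sets have.

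The size for Csf1 differed between the numbers in each probe set. Between the arrays numbered 1 the log2 difference was -1.01 to -1.51, and between those numbered 2 it was -0.14 to -0.41. With the number as a term the adjusted p of the 4 probe sets was 2.44e-06 to 0.000409 (limma). That fit borrows its spread across probe sets. These p-values therefore do not reflect how far apart the 2 numbers lay in each Csf1 probe set. Without Original 1 the differences were -0.49 to -0.63, and without Resistant 1 they were -0.40 to -0.64, none of them past the threshold. Without Original 2 they were -0.77 to -1.17, and 2 of the 4 passed. The direction was the same in each case.

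Lif encodes leukemia inhibitory factor, named for its action on myeloid leukaemia cells and known for keeping mouse embryonic stem cells undifferentiated. Its tested probe set, 1421207_at, had 197.2 and 259.9 on the Resistant arrays, against 341.6 and 227.5 on the Original arrays. The groups overlapped, since Resistant 2 lay above Original 2. The log2 difference was -0.30 ± 0.286 (SE; limma adjusted p = 0.912), with a 95% interval from -0.93 to 0.34, and it was -0.78 and 0.19 at the 2 numbers. The other Lif probe set, 1450160_at, had 33.3 and 26.5 on the Resistant arrays, against 53 and 36.6 on the Original arrays, under the filter.

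The remaining cytokines were dim in every array. Il6, the acute-phase cytokine, had 11.1 and 9.4 on the Resistant arrays, against 9.6 and 1.1 on the Original arrays. Il11, a related cytokine of bone marrow stroma, had 8.5 and 14.8, against 27.3 and 13.6. Csf3, which drives neutrophil formation, had 21 and 17.7, against 11.8 and 23.1. The groups overlapped for all 3, and none was tested.

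Alcam encodes CD166, which binds itself on neighbouring cells and CD6 on T cells. Probe set 1426301_at had 192.7 and 248.1 on the Resistant arrays, against 74.8 and 79.2 on the Original arrays, means of 220 ± 39.2 and 77.0 ± 3.11 (SD, n = 2 each). The log2 difference was 1.47 ± 0.309 (SE; limma adjusted p = 0.137, unadjusted p = 0.000706), with a 95% interval from 0.78 to 2.16. It was larger in size than 99.5% of all tested probe sets, and the smallest unadjusted p of the members was its own.

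Probe set 1426300_at had 253.1 and 213.7 on the Resistant arrays, against 97.4 and 146.8 on the Original arrays. The log2 difference was 0.94 ± 0.307 (SE; limma adjusted p = 0.455). Within the numbers the difference was 1.33 and 1.61 for 1426301_at and 1.35 and 0.53 for 1426300_at. The adjusted p with the number as a term was 3.51e-05 and 0.0111 (limma), on a spread borrowed across probe sets. Leaving out 1 array gave 1.29 to 1.65 for 1426301_at and 0.65 to 1.23 for 1426300_at, with no call. Alcam was thus higher in the Resistant group on both probe sets and at both numbers, and of the members that passed with the number as a term it was the 1 whose direction was higher.

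Vcam1 encodes the endothelial and stromal ligand of integrins that carry the alpha4 chain, and among the tested member probe sets its own had the 3 largest gaps between the Original arrays on the log2(signal + 3) scale. Probe set 1448162_at had 353.1 and 114.1 on the Resistant arrays, against 1242.5 and 231.8 on the Original arrays. Its group means were 234 ± 169 and 737 ± 715 (SD, n = 2 each), and the log2 difference was -1.41 ± 0.674 (SE; limma adjusted p = 0.709). Resistant 1 was brighter than Original 2, so the groups overlapped.

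Probe set 1415989_at had 282.3 and 150.5 on the Resistant arrays, against 818.3 and 117.4 on the Original arrays (-0.59 ± 0.684, SE; limma adjusted p = 0.945). Probe set 1451314_a_at had 91.4 and 95.5, against 311.8 and 116.3 (-1.01 ± 0.427, SE; limma adjusted p = 0.636), and was the 1 Vcam1 probe set whose groups did not overlap. In all 3 the array Original 1 was the brightest of the 4, at 2.68 to 6.97 times Original 2. That gap within the Original group was larger than in 98.98% to 99.96% of all tested probe sets.

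Between the arrays numbered 1 the log2 difference of Vcam1 was -1.53 to -1.81. Between those numbered 2 it was -1.005 for 1448162_at, -0.28 for 1451314_a_at and 0.35 for 1415989_at. With the number as a term 1448162_at (adjusted p = 1.41e-08) and 1451314_a_at (adjusted p = 0.0128) passed and 1415989_at did not (adjusted p = 0.127), all by limma. Here too the spread was borrowed across probe sets and not measured between the numbers of each Vcam1 probe set. Without Original 1 the differences were -0.20, -0.31 and 0.80 in the same order of probe sets. Without Original 2 they were -2.61, -1.71 and -1.97, and 1448162_at and 1415989_at passed. Leaving out Original 1 thus turned the sign of 1415989_at and took most of the size from the other two.

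**Figure D2:**
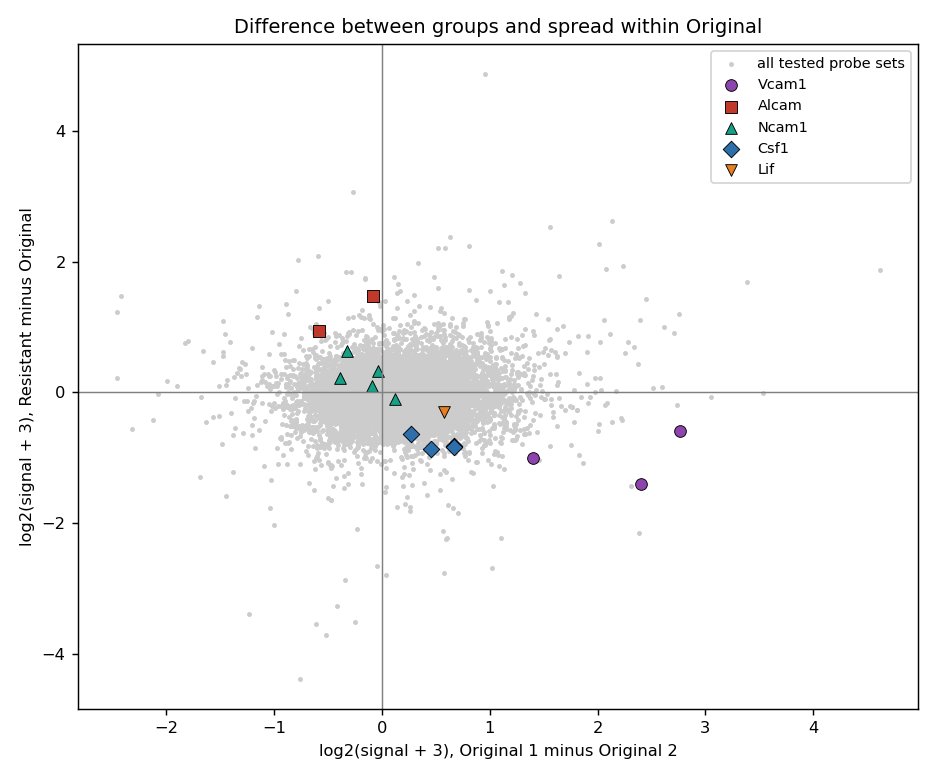
Difference between the groups (vertical, Resistant minus Original, log2(signal + 3)) against the difference between the 2 Original arrays (horizontal) for all 13576 tested probe sets in grey, with the tested members in colour. Vcam1 lies far to the right, with gaps of 1.40 to 2.77 between the Original arrays, while Alcam and Csf1 stand above and below 0 with smaller gaps.

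By distance between log2 values centred on their mean over the 4 arrays, the probe sets nearest to Vcam1 1448162_at were those of Lmo7 (0.534), Adamts4 (0.731) and Dcn (0.740). Adamts4 encodes a protease that cleaves matrix proteoglycans and Dcn the proteoglycan decorin. Dcn, also a fibroblast marker, had 124.9 and 37.9 on the Resistant arrays, against 729.1 and 136.7 on the Original arrays. All 3 had Original 1 as their brightest array, and 4 arrays are too few to tell such likeness from the order of the arrays.

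Ncam1 encodes the neural cell adhesion molecule, which binds itself, interacts with fibroblast growth factor receptors and can carry polysialic acid. It was bright: 3 of its 6 probe sets had signals between 731.8 and 1832.1 on all arrays. Probe set 1426864_a_at had 1340.9 and 1832.1 on the Resistant arrays, against 1174.5 and 1532.9 on the Original arrays, and the groups overlapped. Probe set 1450437_a_at had 1146 and 1174.6, against 914.4 and 935.1, with no overlap and a log2 difference of 0.33 ± 0.171 (SE; limma adjusted p = 0.746).

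The third, 1426865_a_at, had 852.6 and 760.9 on the Resistant arrays, against 731.8 and 777.8 on the Original arrays, also overlapping. Over the 5 tested Ncam1 probe sets the log2 difference ran from -0.09 to 0.64, with 4 above 0. The largest, 1425126_at, had 127.7 and 144.9, against 76.8 and 96.6 (limma adjusted p = 0.741). None passed with the number as a term either, where the smallest adjusted p was 0.282. For the 3 bright probe sets the 95% intervals of the log2 difference lay between -0.31 and 0.70, which leaves room for a change in either direction. The sixth, 1421966_at, was at 1.9 and 2.2 on the Resistant arrays, against 1.8 and 2.2 on the Original arrays.

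Icam1 and Mcam were at the floor. Icam1, whose product binds the leukocyte integrin LFA-1, had 1.2 and 0.8 on the Resistant arrays, against 3.4 and 9.9 on the Original arrays. Mcam, which encodes CD146 of melanoma and vessel walls, had 3.4 and 8.6, against 10.8 and 3.2. Each has 1 probe set and lay below the filter, so no difference can be read from them.

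**Figure D3:**
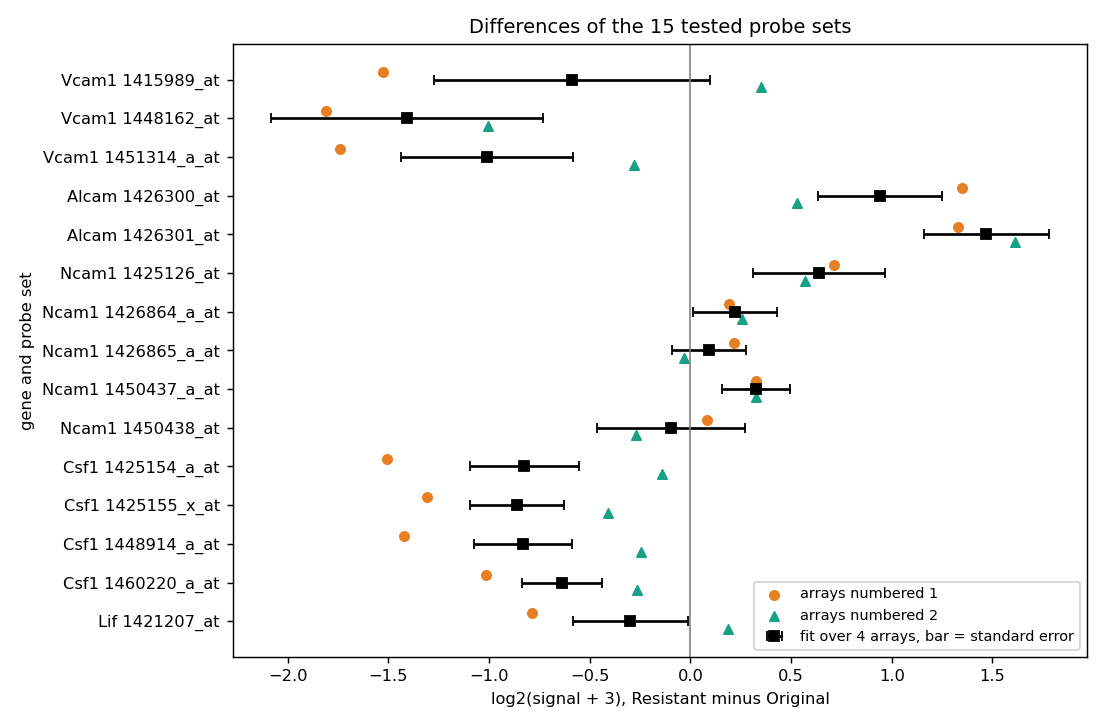
Log2 difference (Resistant minus Original) of the 15 tested probe sets. Squares are the limma estimate over 4 arrays with its standard error, circles the difference between arrays numbered 1 and triangles that between arrays numbered 2. Csf1 lies left of 0 and Alcam right of 0 at both numbers, while 1 Vcam1 probe set, 2 Ncam1 probe sets and Lif have their 2 numbers on opposite sides.

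Receptors, relatives and partners were taken from lists, with each gene at its brightest tested probe set and 5.77% of the 7510 tested genes called when the number was a term (2.70% higher and 3.06% lower), against 0.226% without it. The median over all 7510 genes was 0.02, with 47.2% below 0. In these lists 0 genes passed without the term. The lists too were chosen with earlier results of these data known, so their counts are no independent evidence.

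A list of receptor chains had 4 of 6 genes tested (median -0.15, 1 above 0 and 3 below). It holds receptor chains of the member cytokines, though none specific to IL-11. It also holds Osmr, a receptor chain for oncostatin M, which is a relative of IL-6 and LIF but no member. Osmr, which pairs with gp130, had 904.8 and 564.8 on the Resistant arrays, against 416.6 and 320.5 on the Original arrays. Its log2 difference was 0.96 ± 0.260 (SE; limma adjusted p = 0.310, and 8.52e-05 with the number as a term). Osmr was the 1 gene of the list called there, so no tested receptor chain of a member cytokine passed. Il6st, the shared chain itself, had 1576.4 and 1069.8, against 2158 and 909.6, with overlap. Csf1r, the receptor of CSF1 and a macrophage marker, was dim at 102.6 and 46.5, against 103.8 and 59.7. Csf3r and Lifr lay below the filter.

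Of the JAK-STAT genes and their inhibitors all 16 on the array were tested, 12 above 0 and 4 below (median 0.20). The 1 that passed with the number as a term was Socs3, a feedback inhibitor that STAT3 induces, with 1185.8 and 674.4 on the Resistant arrays, against 531.5 and 473.9 on the Original arrays (0.83 ± 0.259, SE; limma adjusted p = 0.416, and 0.000630 with the term). Of 13 tested STAT3-induced genes 8 were above 0 and 5 below (median 0.01), and with the term 3 passed higher and 1 lower. The 3 were Osmr, Socs3 and Timp1, an inhibitor of matrix metalloproteases (0.67), and the 1 lower was Gadd45b (-0.46), a stress-induced gene that NF-kappaB also induces. Osmr is also in the receptor list and Socs3 in the JAK-STAT list.

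A list of other cytokines, which reaches beyond the families of the members, had 9 of 24 genes tested. Of these 6 were above 0 and 3 below (median 0.25), and 0 passed with the term. The 2 brightest were Mif, a macrophage migration inhibitory factor, and Kitl, the ligand of the Kit receptor. Mif had 8569 and 11885.9 on the Resistant arrays, against 10041.6 and 11960 on the Original arrays. Kitl had 962.3 and 845.6, against 663.6 and 810.5. Tnf, Csf2 and Il10 lay below the filter on the arrays.

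Of other immunoglobulin-family adhesion molecules 8 of 30 were tested, 2 above 0 and 6 below (median -0.14). With the term Cadm1 (-0.92), a homophilic adhesion molecule, and Pvr (-0.92), the poliovirus receptor, passed lower. Cd200 (0.90), an inhibitory ligand of myeloid cells, passed higher, though its groups overlapped. Cadm1 had 490.4 and 463.5 on the Resistant arrays, against 1032 and 795.7 on the Original arrays, with no overlap.

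Among ligands and partners 11 of 17 were tested (median -0.06, 5 above 0 and 6 below). The integrin chain Itgb2 (-0.92) and the galectin Lgals3 (-0.35) passed lower with the term. Itga4, the alpha4 chain of the VCAM-1 receptor, had 1.3 and 2.2 on the Resistant arrays, against 7.3 and 11.7 on the Original arrays, below the filter. Of the shedding and polysialylation enzymes 8 of 10 were tested (median -0.10, 4 above 0 and 4 below), and the metalloprotease gene Adam8 (-0.63) passed lower with the term. Both polysialyltransferase genes, St8sia2 and St8sia4, which act on NCAM, lay below the filter.

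NF-kappaB subunits and inhibitors had 11 of 12 genes tested, 3 above 0 and 8 below (median -0.18), and 5 passed lower with the term. The 4 largest were Traf1 (-1.03), Nfkb2 (-0.97), Nfkbie (-0.96) and Tnfaip3 (-0.91), which encode a TNF receptor adaptor, the precursor of the p52 subunit and 2 inhibitors of the pathway. Lower values of genes in this list were known from earlier results on these arrays, so its counts are no independent evidence. Nfkb2 had 430.1 and 399.5 on the Resistant arrays, against 1065.3 and 621.1 on the Original arrays, with Original 1 highest as for Csf1.

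**Figure D4:**
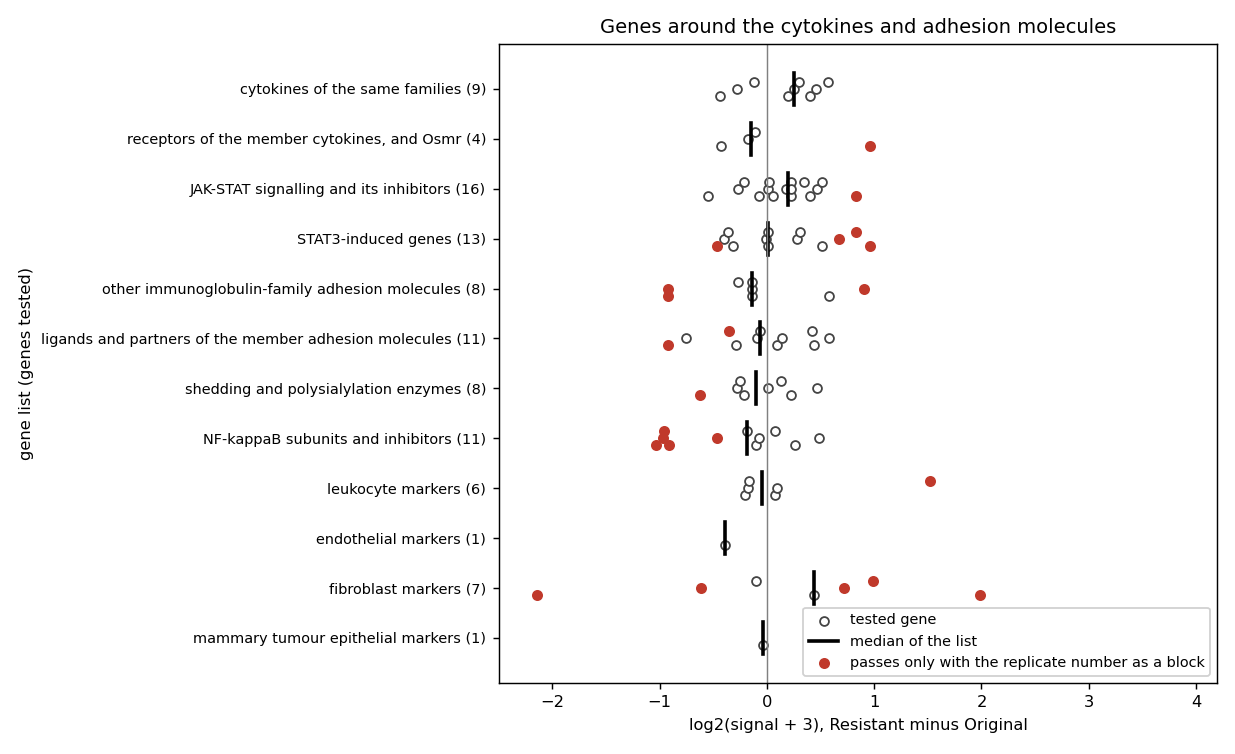
Log2 difference (Resistant minus Original) of each tested gene in the lists, with the number tested in parentheses, black bars for list medians and red points for genes that pass only with the array number as a term. Red points lie on both sides of 0 in the list of other adhesion molecules, among STAT3-induced genes and among fibroblast markers. All 5 in the NF-kappaB list lie below 0.

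Markers of other cells were summed beside these results. Leukocyte markers (6 of 14 above the filter) summed to 1033 to 1118 on the Resistant arrays, against 749 to 1006 on the Original arrays, and Ptprc, the defining leukocyte gene, was at 12 and 7.4, against 8.6 and 14.8. Cd48 was the 1 of them that passed higher with the term (1.52). It had 411.3 and 367 on the Resistant arrays, against 140.6 and 126.8 on the Original arrays. The leukocyte sums lay apart through this gene, and of the 6 tested markers 3 were above 0 and 3 below. Endothelial markers (1 of 9 above the filter) summed to 115 to 223 on the Resistant arrays, against 204 to 219 on the Original arrays, with Pecam1 at 9.8 and 3.1, against 2.7 and 22.3.

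Fibroblast markers (7 of 9 above the filter) summed to 20186 to 20329 on the Resistant arrays, against 20938 to 21189 on the Original arrays. Most of each sum was S100a4, whose groups overlapped. It had 12131.6 and 14255.5 on the Resistant arrays, against 13401 and 14860.8 on the Original arrays. Of the 7 tested markers 4 were above 0 and 3 below. With the term 3 passed higher, which were Col3a1 (1.99), Col1a1 (0.99) and Pdgfra (0.72), and 2 lower, Dcn (-2.15) and Col1a2 (-0.62). Vcam1 and Csf1 are also made by fibroblasts. NF639 is a cell line, and whether such cells were present or had a part in their difference was not tested. In bulk RNA, fewer cells of a kind and less RNA per cell cannot be told apart. Of 9 mammary epithelial markers 8 lay below the filter, among them Cdh1, Epcam and Krt18, and Erbb2 had 280.7 and 326.2 on the Resistant arrays, against 319.7 and 299.4 on the Original arrays.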

How the data were processed

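RNA from NF639 cells, 2 arrays of the Resistant pool and 2 of the Original population, was measured on Affymetrix Mouse 430A 2.0 arrays. The authors deposited 1 linear intensity (the MAS5 signal) for each probe set, per the submitters' processing notes, which name MAS5; its version and genome build are not given in the sources used here. No detection calls were used. Groups and numbers came from the labels.

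Of 22690 probe sets 64 were controls and took no part. Names came from the platform annotation (1 symbol for 20380 probe sets, several for 691, none for 1555), of which 20351 matched the GRCm38.p6 gene table. Each array was rescaled to the same 2% trimmed mean, log2(signal + 3) was taken, and probe sets under the 40th percentile of the mean of that value (a signal of 49.1) were left out. The filter was first set on the mean of the linear signals and was changed to the mean of the log2 values after both had been run and their calls seen, to follow an earlier processing of these data. Over all probe sets 31 passed with the linear mean and 23 with the log2 mean, and 0 member probe sets passed with either. The Resistant minus Original difference was fitted in limma 3.58.1 under R 4.3.3 (lmFit, then eBayes with a variance trend, two-sided), with Benjamini-Hochberg adjustment over 13576 probe sets and a threshold of 0.05. The same fit with the replicate number as a block is the one called the array number as a term. The procedure was tested on simulated data. Arrays carry no counts, so their number limits the precision.

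The members, lists and tests were chosen with earlier results of these data known. All members are named. Of each list up to 4 genes past the threshold in either fit are named by size, or else the 2 brightest. Genes named outside that rule are additions. These are Col1a2, to give all 5 fibroblast markers that passed, and S100a4, for its share of the fibroblast sum. The others are Il6st, Csf1r, Itga4, those below the filter and the defining cell markers, chosen for their role.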

Additional observations from a re-analysis of the deposited data

How the results depend on the processing

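Of the 15 tested member probe sets 0 passed in the chosen fit. None passed without the filter (22 member probe sets tested) or with a filter at the 60th percentile (10 tested, with no Alcam probe set among them), and 0 of the 15 passed with a pseudocount of 1, 16 or 64, with quantile normalisation, with the deposited values unscaled, without a variance trend, and with the filter on the mean of the linear signals. That last filter was the one used first, and the change to the log2 mean was made after seeing the data and both counts over all probe sets, 23 with the log2 mean and 31 with the linear mean. With the replicate number as a block 8 passed, and leaving out 1 array gave 0 to 4, the 4 being without Original 2. The 23 became 0 without a variance trend (922 at an unadjusted p under 0.05), 5 without the filter, 10 with the filter at the 60th percentile, 8 with quantile normalisation and 710 with the replicate block, and 68 to 111 with 1 array left out. The cause was not tested. The labels do not say that the numbers pair the arrays. The deviations of the arrays numbered 1 from their group means correlated at 0.352 over the tested probe sets. Signs turned for 3 values. With 1 array left out Vcam1 1415989_at ran from -1.97 to 0.80 (the last without Original 1), Ncam1 1426864_a_at from -0.00295 (without Resistant 2) to 0.45 and Ncam1 1450438_at from -0.33 to 0.14 (the last without Resistant 2). Of the other values of single probe sets, 12 passed only in an alternative and 190 kept their sign and their side of the threshold. The 7 member probe sets under the filter lie where the signal over background limits what the arrays can show.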
